A study of Mus musculus with 10 samples.

Results

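Fc receptors and C-type lectin receptors are the surface proteins with which neutrophils recognise antibody-coated particles and microbial sugars and lipids. The group examined here held 10 mouse genes, chosen by symbol, and all 10 were among the 13091 genes of the deposited tables. They comprised 4 Fc receptor genes (*Fcgr2b*, *Fcgr3*, *Fcgr4* and the signalling chain *Fcer1g*) and 6 C-type lectin receptor genes (*Clec7a*, *Clec4d*, *Clec4e*, *Clec4a2*, *Clec5a* and *Clec12a*). RNA was sequenced from cultured neutrophils matured from clonal, HoxB8-immortalized bone marrow progenitors of the 129-SVEV strain. HoxB8 keeps the progenitors dividing until estrogen is withdrawn. According to the paper, IL-3 and granulocyte colony-stimulating factor were added for maturation. There were 2 *Vim*+/+ and 3 *Vim*-/- libraries from unstimulated cells, and as many of each after 1 hour with 25 ng/mL LPS (lipopolysaccharide, a bacterial cell wall component), or 10 libraries in 4 groups. The labels number them as biological replicates and do not say which clone each came from. The labels call the *Vim*-/- cells a vimentin knockdown (KD), while the methods derive them from knockout mice. Every group carried the HoxB8 transgene.

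In bulk RNA, fewer cells of a type and less RNA per cell cannot be told apart. The level of a gene in these tables is a mean of normalised counts over libraries, the same in all 4 tables for all 13091 genes, so it pools both genotypes and both treatments, with 6 of the 10 libraries from *Vim*-/- cells. Differences between the groups are given in the tables only as the authors' own comparisons, which were not used here, and values per library or per group were not analysed here. The levels below are therefore a description without a spread or a test, and the depth of each library is unknown from these tables. To compare genes, each mean was divided by the length in kilobases of the longest protein-coding transcript in GENCODE M21, the annotation of GRCm38 (the build also named mm10). For a gene without a protein-coding transcript, the longest transcript of any type was used. The median of this level per kilobase was 333 over the 12048 genes with a transcript length, and all 10 receptor genes lay above it.

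Activating Fc gamma receptors and several C-type lectin receptors have no signalling motif of their own and pair with a small adaptor, Fcer1g (the common gamma chain) or Tyrobp (DAP12). The tyrosines of the adaptor, once phosphorylated by Src-family kinases, recruit the kinase Syk, which leads to phagocytosis and, through Card9, to cytokine production. Inhibitory members carry a tyrosine motif in their own tail that recruits phosphatases instead.

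*Fcgr3* and *Fcgr2b* bind IgG through closely related extracellular domains, one with an activating and the other with an inhibitory effect, and their transcripts share a stretch of sequence. The longest exact run common to the longest transcripts of the 2 genes was 129 bases. It lay inside the coding sequence and across the junction of exons 3 and 4 in each. The reads were sequenced in pairs, each 150 bases long. Both stretches are shown because a shorter or trimmed read could match both genes there. How such reads were assigned is not given in the sources used here, and the other read of a pair was not considered. The stretches are reference sequence, and the sequence of the 129-SVEV cells was not examined. They are spliced, lie on the minus strand of GRCm38 at chr1:171054147-171057812 for *Fcgr3* and chr1:170966654-170968101 for *Fcgr2b*, and run 5′ to 3′, with the shared run in capitals and 20 bases on either side in lower case.

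Fcgr3: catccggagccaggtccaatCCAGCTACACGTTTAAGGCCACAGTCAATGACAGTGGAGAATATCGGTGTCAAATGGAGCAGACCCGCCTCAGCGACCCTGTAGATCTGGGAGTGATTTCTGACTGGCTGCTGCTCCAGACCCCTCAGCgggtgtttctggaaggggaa

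Fcgr2b: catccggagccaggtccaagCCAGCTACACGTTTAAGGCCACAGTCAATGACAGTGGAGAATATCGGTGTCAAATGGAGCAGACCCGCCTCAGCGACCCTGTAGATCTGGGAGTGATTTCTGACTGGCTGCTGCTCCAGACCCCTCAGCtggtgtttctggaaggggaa

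Of all words of 50 bases in the *Fcgr3* transcript, 12.8% were also found in *Fcgr2b*, and 4.75% of those of *Fcgr2b* were found in *Fcgr3*. Over all other genes, *Fcgr2b* shared 11.4% of its words of 50 bases, with 47 genes. At the full read length of 150 bases, neither transcript shared a word with another gene. Words were compared in the sense orientation only, here and below. *Fcgr4*, *Fcer1g*, *Clec4d*, *Clec4e*, *Clec5a*, *Clec7a* and *Clec12a* shared no word of either length with another gene. *Clec4a2* shared 14 of its 2332 words of 150 bases with *Clec4a4*, a gene of the same family that has no row in the tables used here, and 8.76% of its words of 50 bases with other genes. Exons of *Fcgr2b* also overlapped an antisense gene, *Gm38204*, by 155 bases, and no other member overlapped an exon of another gene.

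The signalling chain and the activating receptor that needs it had the highest levels of the 10 genes. *Fcgr3* (ENSMUSG00000059498), the low-affinity activating IgG receptor, had a mean normalised count of 83608, rank 65 of the 13091 genes, and a level of 62070.1 per kilobase. *Fcer1g* (ENSMUSG00000058715), the chain that Fcgr3, Fcgr4 and the IgE receptor share, had a mean of 41024, rank 165, and a level of 60065 per kilobase. The ratio of *Fcgr3* to *Fcer1g* was 1.03 per kilobase of the longest transcripts, 2.51 with the shortest and 2.04 for undivided means, and without values per library it cannot be said whether they differed. Together they made up 54.0% of the summed means of the 10 genes. The next gene in order with the longest transcripts, *Clec4e*, was lower than *Fcer1g* by a ratio of 6.93 per kilobase. On the other scales the next gene was *Clec5a*, and the ratio was 1.75 with the shortest transcripts, 2.25 with the median length, 2.26 with the principal transcripts (those that GENCODE's APPRIS tag marks) and 1.78 for undivided means.

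Both other Fc gamma receptors were lower than *Fcgr3*, and their distance from each other moved with the transcript length. *Fcgr2b*, the inhibitory receptor, which signals through a phosphatase-recruiting motif, had a mean of 21817, rank 411, and a level of 6156 per kilobase. *Fcgr4*, an activating receptor for IgG2a and IgG2b that needs the gamma chain, had a mean of 6952, rank 1529, and a level of 5535 per kilobase. The level of *Fcgr3* per kilobase was 10.1 times that of *Fcgr2b* with the longest transcripts, 7.59 times with the shortest and 4.4 times with the median length, and the undivided means stood at 3.83. Against *Fcgr4* it was 11.2 times with the longest and 27.6 times with the shortest transcripts. The ratio of *Fcgr2b* to *Fcgr4* was 1.11 with the longest transcripts, 2.59 with the median length and 3.64 with the shortest, and 3.14 for undivided means. *Fcgr1*, the high-affinity IgG receptor and not a member, had a level of 595 per kilobase of the longest transcript, so on that scale *Fcgr4* exceeded it by 9.30 times and *Fcgr3* by 104 times.

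**Figure D1:**
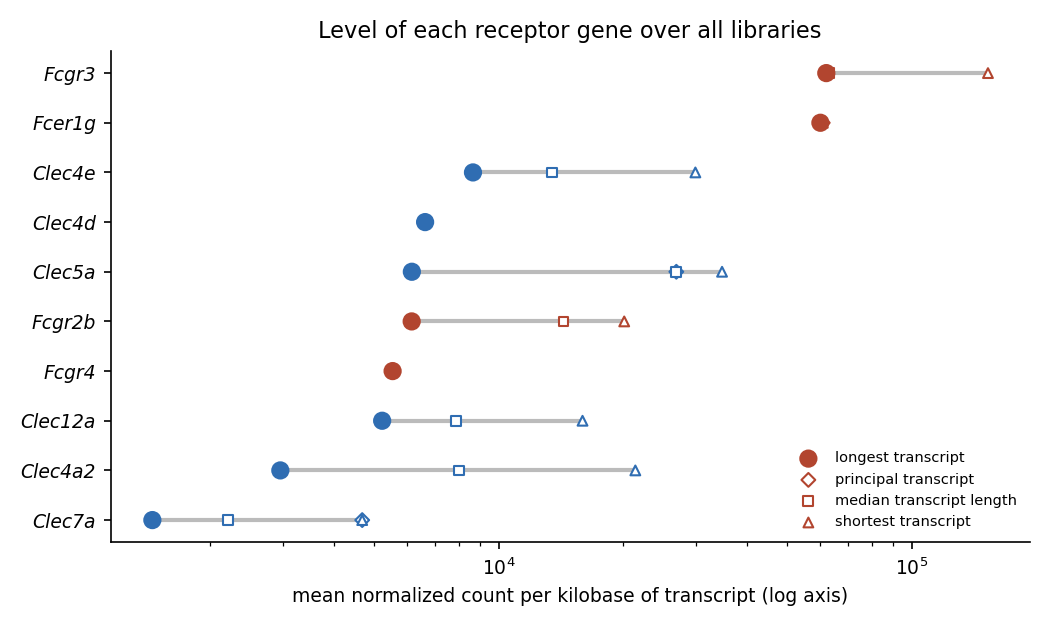
Mean normalised count over all libraries per kilobase of transcript, on a log axis, for the 10 receptor genes, with filled circles for the longest transcript, open symbols for the other lengths, grey bars for their range, red for Fc receptor genes and blue for C-type lectin receptor genes. *Fcgr3* and *Fcer1g* lie at 60065 or more under every length, and the bar of *Clec4a2* runs from 2960.3 to 21413.

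Among the 6 C-type lectin receptors, the order depended on the transcript length: *Clec4e* was highest with the longest transcripts and *Clec5a* on the other 4 scales. *Clec4e* (Mincle), which binds trehalose dimycolate and signals through the gamma chain, had a mean of 21814, rank 412, and a level of 8663 per kilobase. *Clec4d* (MCL), its partner at the cell surface, had a mean of 8777, rank 1212, and a level of 6634 per kilobase. Among the 10 genes *Clec4d* took place 4 with the longest transcripts, 5 with the principal transcripts, 7 with undivided means and 8 with the shortest and the median lengths. Their ratio was 1.31 with the longest and 4.51 with the shortest transcripts, and 2.49 for undivided means. *Clec5a* (MDL-1), which pairs with Tyrobp, had a mean of 23088, rank 384, and a level of 6162 per kilobase.

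*Clec12a* (MICL), an inhibitory receptor, had a mean of 13065, rank 778, and a level of 5222 per kilobase. *Clec4a2* (DCIR), the other inhibitory lectin of the group, had a mean of 7345, rank 1457, and a level of 2960.3 per kilobase. *Clec7a* (Dectin-1), which recognises fungal beta-glucan and couples to Syk through a motif in its own tail, was lowest, with a mean of 3303, rank 3073, and a level of 1451 per kilobase. The level of *Clec4e* was 5.97 times that of *Clec7a* with the longest transcripts and 1.85 times with the principal transcripts. That of *Clec5a* was 4.25 times that of *Clec7a* with the longest transcripts and 12.2 times with the median length. GENCODE M21 types *Clec7a* as a polymorphic pseudogene, although 2 of its transcripts are protein-coding.

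In the order of levels, 6 genes from *Clec4e* down to *Clec12a* lay within a ratio of 1.66 with the longest transcripts, and the places among them moved with the transcript length. *Clec5a* has a longest transcript of 3747 bases and a principal transcript of 858, which gave 26909 per kilobase and the third place. *Clec4a2* was the ninth with the longest transcripts and, at 21413 per kilobase, the fifth with the shortest. *Fcgr3* and *Fcer1g* kept the first and second place on all 5 scales tried, undivided means included. *Clec7a* was last on 4 of the 5 scales, and *Clec4a2* on the principal-transcript scale.

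The 10 genes lie in 4 places of the genome. *Fcgr2b*, *Fcgr4*, *Fcgr3* and *Fcer1g* span 276 kb of chromosome 1, from 170958617 to 171234365, where 11 protein-coding genes lie, these 4 included, of which 9 had a row. *Clec4a2*, *Clec4d* and *Clec4e* span 183 kb of chromosome 6, from 123106428 to 123289870, with *Clec4b2* and *Clec4n* between them. All 5 of these genes had a row, and with the longest transcripts *Clec4e* and *Clec4d* exceeded *Clec4n* (Dectin-2, a receptor for fungal mannans, at 1854 per kilobase) by 4.67 and 3.58 times. *Clec12a* and *Clec7a* are the outer genes of a stretch of 130 kb on chromosome 6, from 129342691 to 129472779. The 4 protein-coding genes between them, *Clec12b*, *Clec1b*, *Clec9a* and *Clec1a*, had no row in the tables used here, while *Clec12a* and *Clec7a* ranked 778 and 3073. *Clec5a* lies apart on chromosome 6, from 40574894 to 40585821, on the minus strand.

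**Figure D2:**
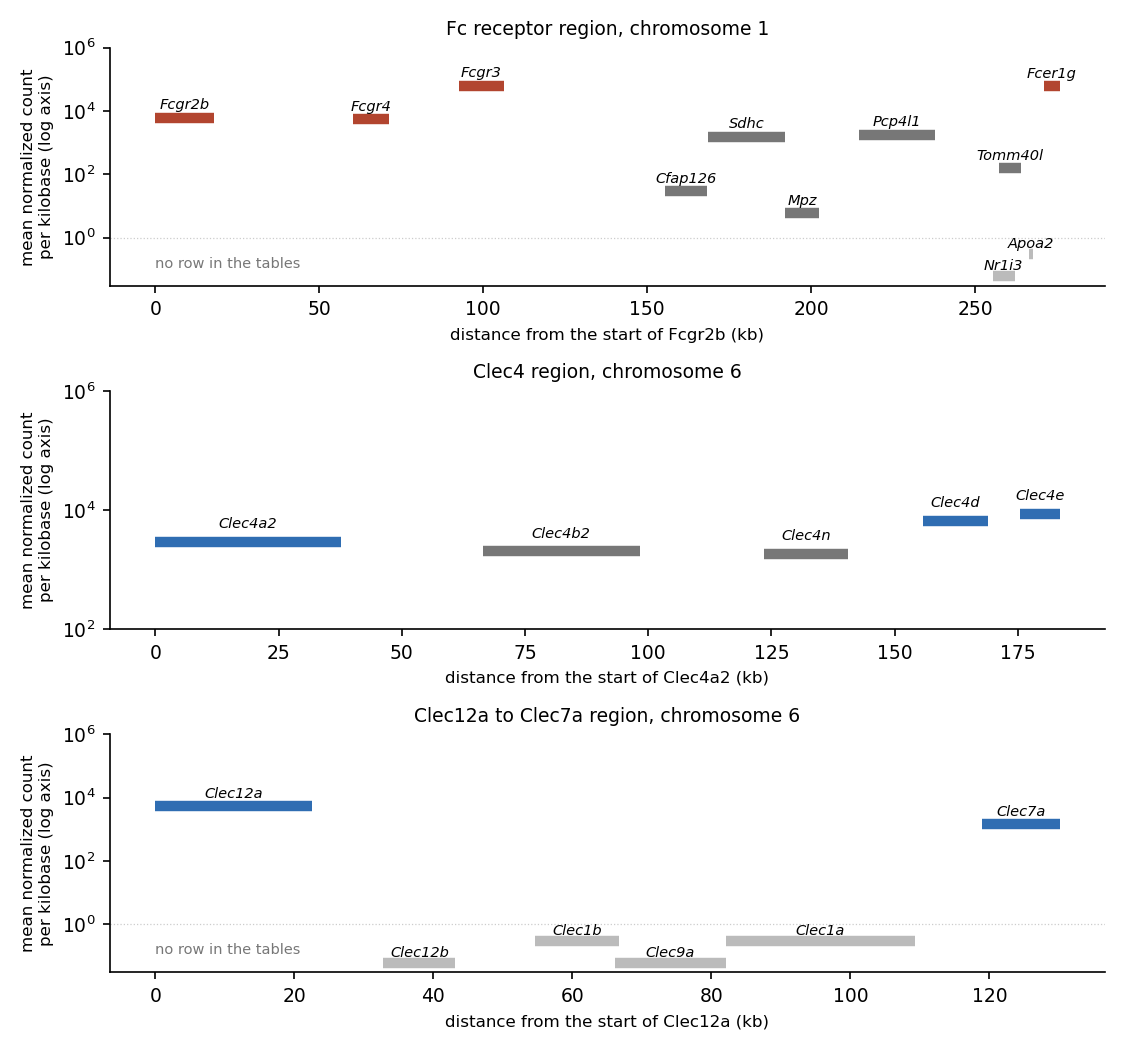
Level per kilobase of the longest transcript (log axis) against distance in kb from the lowest coordinate of the first gene, for the 3 regions that hold more than 1 member, with red and blue lines for members, dark grey for other genes and pale grey under the dotted line for genes with no row. In the lowest panel *Clec12a* at 5222 and *Clec7a* at 1451 flank 4 genes without a row.

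Genes related to the members were described for comparison, from lists that were drawn up with earlier results of these data known, with the longest transcripts alone. Of 12 other Fc receptor genes, 7 had a row, and their levels per kilobase ran from 8.53 for *Fcgrt*, the neonatal Fc receptor that recycles IgG, and 16.4 for *Fcrl5* to 125 for *Fcrlb* and 595 for *Fcgr1*, with a median of 59.4. None of these 7 reached the lowest member, *Clec7a*. Of 26 symbols of other C-type lectin receptors, 1 of which (*Clec6a*) is not in GENCODE M21, 13 had a row, with a median of 162. The lowest were *Clec10a* at 7.48 and *Cd72* at 9.09, and the highest *Cd69*, an activation marker of lymphocytes and other leukocytes, at 2002 and *Clec4b2* at 2026. These last 2 genes and *Clec4n* were the 3 genes of the list above *Clec7a*. The median of the 10 members was 6159.

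Of the signalling partners of the receptors, *Tyrobp*, the adaptor of Clec5a, stood at 84348 per kilobase, or 1.40 times *Fcer1g*, and *Hcst* (DAP10), the other adaptor that Clec5a can use, at 2336. All 7 kinases had a row. Per kilobase, *Prkcd* at 9623 and *Lyn*, a Src-family kinase, at 8116 were highest. *Syk* stood at 6189, and *Btk* at 2924 and *Src* at 4.04 were lowest. By undivided means *Syk* was highest at 33189, above *Lyn* at 28105 and *Prkcd* at 27436. All 9 downstream genes had a row, from 313 for *Malt1* and 395 for *Vav3* to 5038 for *Plcg2* and 5994 for *Vav1*, with *Card9* at 4928. Of the phosphatases that inhibitory receptors recruit, *Ptpn6* (SHP-1) stood at 20042, *Inpp5d* (SHIP-1), the partner of Fcgr2b, at 3748, and *Ptpn11* (SHP-2) at 846.

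**Figure D3:**
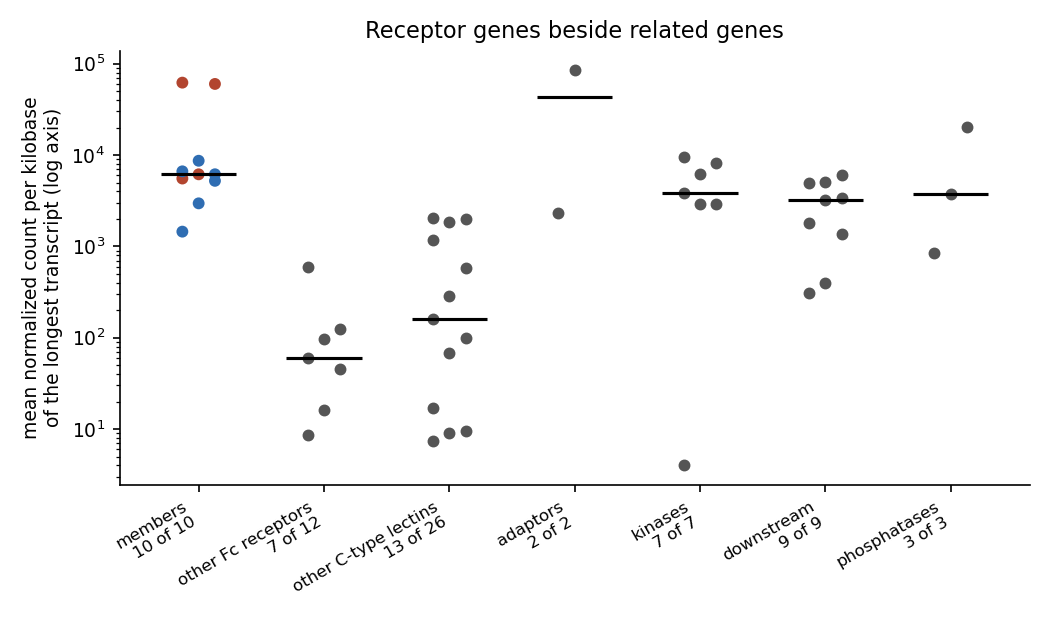
Level per kilobase of the longest transcript (log axis) for the members (red, Fc receptor genes; blue, C-type lectin receptor genes) and 6 lists of related genes (grey), with the number that had a row under each name and black lines at the medians. The medians are 6159 for the members, 59.4 for other Fc receptors and 162 for other C-type lectin receptors.

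Levels of marker genes of the labelled cell type and of other cell types are given for comparison. All 12 neutrophil markers had a row, from 11905 per kilobase for *Cxcr2* to 2487149 for *S100a9*, with a median of 38298. All 5 genes of granulocyte progenitors had a row, *Prtn3* at 62605, *Mpo* at 44276, *Elane* at 22303, *Ctsg* at 11462 and *Cd34* at 1004. Of 8 markers of mast cells, basophils and eosinophils 7 had a row. The eosinophil granule genes *Prg2* at 320189 and *Epx* at 53097 were highest, followed by *Cpa3*, of mast cells and basophils, at 18148 and the basophil protease *Mcpt8* at 3352. *Gata2* stood at 582, *Ms4a2* at 248 and *Kit* at 205, and *Fcer1a*, the IgE-binding chain, had no row. Of the macrophage and monocyte markers given here, *Ly6c2* stood at 32214, *Cd68* at 5450, *Adgre1* at 3111, *Csf1r* at 695 and *Ccr2* at 219, while *C1qa*, *C1qb*, *C1qc* and *Mertk* had no row. For B cells the count was 1 of 5, for T and NK cells 1 of 7, for dendritic cells 1 of 5 and for erythroid cells 0 of 5. Mast cells, basophils, eosinophils and macrophages also make several of the 10 receptors, and the part of such cells in the levels was not tested.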

How the data were processed

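RNA was measured by poly(A) sequencing in 10 libraries. According to the methods and the submitters' processing notes, the authors trimmed reads with Cutadapt 4.4, used STAR 2.7.10b on mm10 for alignment and counting, and fitted DESeq2 1.26.0 with RUVSeq covariates. The gene annotation and strand setting are not given in the sources used here. The signal used is baseMean, the mean of the authors' normalised counts, deposited in 4 tables of 13091 genes (equal within a relative tolerance of 1e-09). The other 9 columns of each table hold the authors' log2 fold changes, standard errors, Wald statistics, p-values and flags derived from them, and were not used, so no genotype or LPS comparison and no test is given.

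Groups came from sample titles. Levels were divided by transcript lengths of GENCODE M21 (92.0% of genes had one) with Python 3.11.15, numpy 2.4.6 and pandas 2.3.3; figures used matplotlib 3.10.9. Words of 50 and 150 bases were compared with all GENCODE transcripts, in the sense orientation only. Ranking and run finding were tested on simulated data. Members and lists were chosen with earlier results of these data known. All members were named, with the 2 highest and 2 lowest of each list of related genes per kilobase; *Clec4n*, *Syk*, *Card9*, the genes lying between members and the markers given were chosen after values were seen. A planned description of protein sequences was not run. Of the marker genes listed, 1 is not reported here. Sequences are GENCODE M21 transcripts on GRCm38.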

Additional observations from a re-analysis of the deposited data

How the results depend on the processing

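The order of the 10 genes by level per kilobase depended on the transcript length. Of the 10 places, 3 were the same with undivided means, 4 with the shortest transcripts, 3 with the median length and 5 with the principal transcript, a setting chosen after seeing the data, and the largest move was 4 places. *Fcgr3* and *Fcer1g* kept the first and second place in all of these. The levels of *Clec4d* and *Fcgr4*, which have 1 protein-coding transcript each, did not move, while that of *Clec4a2* ranged over 7.23 times, since its shortest transcript has 343 bases. The percentile of *Clec7a* among all genes fell from 76.5 to 70.2 when only the 10321 genes with a mean of at least 100 were ranked, and that of *Fcgr3* from 99.5 to 99.4. No symbol had more than 1 row, so the choice of how to summarise repeated rows gave no alternative. Leaving out replicates was not possible, because the means are already pooled over libraries. No paired analysis was possible because the columns used carry no replicate numbers. The limits are the missing spread between libraries, the unequal weight of the groups in the mean and the unknown depth of each library.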
